A study of Mus musculus with 6 samples.

Results

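Dying cells are cleared by phagocytes in a process called efferocytosis, and 10 genes of this process were examined in macrophages that had been cultured with neutrophils from an injured spinal cord. They were *Gas6*, *Pros1* and *Mfge8* (soluble bridging ligands), *Axl*, *Mertk*, *Tyro3* and *Timd4* (receptors), and *Gulp1*, *Elmo1* and *Dock1* (engulfment adaptors). The members were chosen by gene symbol and selected on earlier results of the same comparison, in which *Gas6* had one of the largest differences. They are 10 of the 55335 genes in the table, and all 10 passed the filter on low values that left 13367 genes for testing. Their differences between the groups are therefore given as a description, with no p-value for a single member. How many of them passed the test across all genes is given only as a count, for the fit and its alternatives, and nothing is read from it.

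The samples were bone marrow-derived macrophages (BMDMs), which are macrophages grown from marrow cells, here for 7 days with 25 ng/ml of M-CSF. All BMDMs were of WT genotype and were co-cultured directly for 24 h with neutrophils taken by magnetic sorting from spinal cord lesions at 3 days post injury (dpi). The neutrophils came from *Cd177* WT mice in 3 libraries and from *Cd177* KO mice, which lack a neutrophil surface receptor, in the other 3, so the knockout lay in the added cells and not in the sequenced ones. BMDMs were then recovered by flow cytometry as Ly6G- cells. All animals of the study were male. The paper names adult C57BL/6 mice, and its methods state no strain for the *Cd177* KO mice. The sources used here do not say how many mice stood behind a library. The replicates may thus be technical, and the p-values measure only the spread between these libraries. BMDMs without neutrophils and neutrophils alone are not analysed here.

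A dying cell exposes phosphatidylserine, a lipid that a living cell keeps on the inner side of its membrane. GAS6 and protein S (from *Pros1*) bind this lipid with one end and a TAM receptor (TYRO3, AXL or MERTK, a family of receptor tyrosine kinases) with the other. MFGE8 bridges the same lipid to integrins, and TIM4 (from *Timd4*) binds it directly. GULP1 is an adaptor behind several uptake receptors, while ELMO1 and DOCK1 together activate the GTPase RAC1, which drives the membrane around its target. Besides uptake, TAM signalling is known to restrain inflammatory responses in macrophages.

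Several facts about the libraries bear on every value below. FPKM, which counts fragments relative to transcript length and library size, allows levels to be compared between genes. On the log2(FPKM + 0.5) scale used for differences, the median of all tested genes was 0.19 higher in the libraries labelled KO. After median-of-ratios or upper-quartile scaling this median was -0.01 or 0.00, and a member's difference has to be read against that shift. In WT replicate 3 and, less, in KO replicate 3, long transcripts were low relative to replicates 1 and 2. Among the fifth of genes with the longest transcripts, the median deviation was -0.34 in WT replicate 3 and -0.17 in KO replicate 3 on that scale.

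*Cd177* itself went against a simple reading of the labels. It was listed at 0.545, 0.309 and 0.521 FPKM in WT replicates 1, 2 and 3 and at 1.79, 1.84 and 2.28 FPKM in KO replicates 1, 2 and 3. The sequenced BMDMs were WT in both groups, so these values do not by themselves check the genotype of the added neutrophils. The paper reports low *Cd177* expression, and little or no protein, in macrophages and microglia. Which cells gave the *Cd177* transcripts here was not tested. WT and KO below are short for the libraries labelled so. Every direction given here rests on the labels as deposited and would turn if they were exchanged, which was not tested. Of 16 neutrophil markers, 14 were higher in every library labelled KO than in every library labelled WT and 1, *Mmp8*, was lower, and their summed level ranged from 202 to 262 FPKM in WT and from 559 to 573 FPKM in KO. *Ly6g*, the marker that the sort selected against, was listed at 0 in the 3 libraries labelled WT and at 0.403 to 0.66 FPKM in those labelled KO. Of 10 macrophage markers 4 were higher and 3 lower without overlap, and they summed to between 6797 and 8229 FPKM in WT and between 7601 and 8258 FPKM in KO, so the labelled cell type was present in all libraries. In these bulk samples, fewer cells of a type and less RNA per cell cannot be told apart.

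Transcripts of other cell types were also measured, because fibroblasts and related cells express *Gas6*, *Axl* and *Mfge8* as well. Of 8 stromal markers 2 were higher and 3 lower without overlap, and they summed to 766 to 912 FPKM in WT and to 1222 to 1229 FPKM in KO. Among them *Acta2*, a smooth muscle actin, lay at 302 to 349 FPKM in WT and 672 to 729 FPKM in KO, while *Col1a1* overlapped between the groups. *Col3a1* and *Pdgfrb*, a fibrillar collagen and a receptor of pericytes and fibroblasts, were lower in every library labelled KO. The 6 B lymphocyte markers summed to 0.711 to 1.35 FPKM in WT and 13.1 to 15.4 FPKM in KO. Most of that came from *Ighm* and *Cd79b*. Endothelial markers summed to at most 1.78 FPKM, dendritic cell markers to at most 1.24 FPKM, T lymphocyte markers to at most 7.11 FPKM and spinal cord markers to at most 7.08 FPKM. Of the last 3 lists, *Flt3*, *Cd3d*, *Aqp4*, *Snap25* and *Mog* were listed at 0 in all libraries. Microglia markers summed to 80.3 to 99.1 FPKM in WT and to 103 to 126 FPKM in KO. The part of neutrophil, stromal or lymphoid RNA in the members' differences was not tested.

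**Figure D1:**
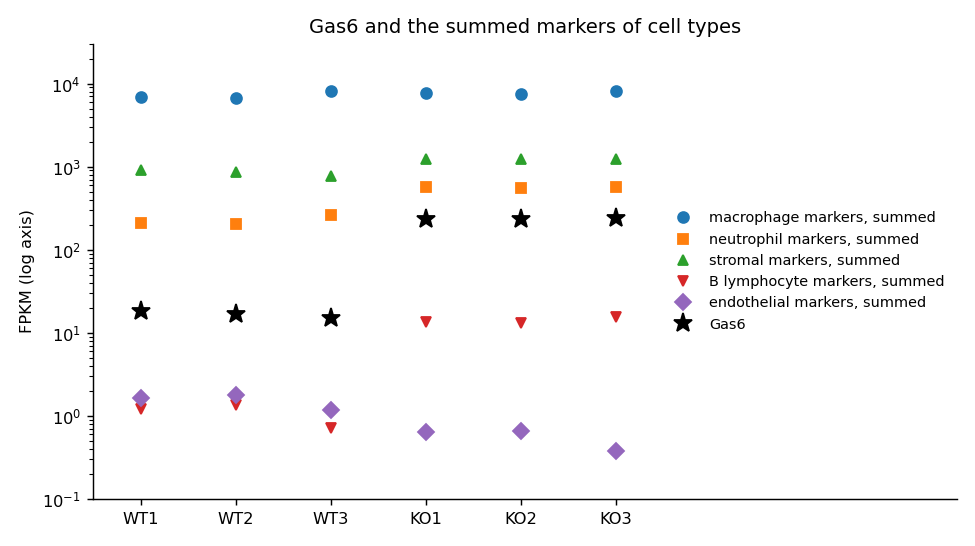
*Gas6* (star) and the summed FPKM of the markers of 5 cell types in each of the 6 libraries, on a log axis. *Gas6* lay between 15.1 and 18.1 FPKM in WT and between 233 and 242 FPKM in KO, the stromal sum between 766 and 1229 FPKM, and the endothelial sum did not exceed 1.78 FPKM.

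*Gas6* had the largest difference of the 10 members. It was listed at 18.1, 17.0 and 15.1 FPKM in WT replicates 1, 2 and 3 and at 236, 233 and 242 FPKM in KO replicates 1, 2 and 3. The groups lay far apart, and each of them was tight. The mean was 16.7 ± 1.52 FPKM in WT and 237 ± 4.51 FPKM in KO (SD, n = 3), a ratio of 14.2, and the log2 difference was 3.79 (SE 0.09). In WT the mean of *Gas6* exceeded that of 80.2% of the tested genes, and in KO that of 98.9%. By log2 difference it stood at rank 5 from the top of all tested genes. If the smallest steps in the FPKM values stand for 1 fragment each, this rests on about 693 to 877 fragments per WT library and 10584 to 12040 per KO library.

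*Gas6* (ENSMUSG00000031451) lies on chromosome 8 of GRCm38, from 13465374 to 13494490 on the minus strand, with 1 annotated transcript of 2548 bases in GENCODE M21. *Tmem255b*, which overlaps it on the opposite strand, did not exceed 0.126 FPKM in any library, and no gene that overlaps another member exceeded 0.945 FPKM. Its transcript is of middle length, and *Gas6* in WT replicate 3 deviated by -0.21 from replicates 1 and 2 against 0.04 in KO replicate 3.

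The promoter of *Gas6* is shown beside those of *Mertk* and *Axl* because a ligand and its receptors differed most, moderately and hardly at all between the groups. Each window holds the 250 bases before the RefSeq start (GRCm38.p6), written 5′ to 3′ on the strand of the gene, and capitals mark letters of a searched motif on either strand. The windows are chr8:13494536-13494785 (minus strand) for *Gas6*, chr2:128698665-128698914 (plus strand) for *Mertk* and chr7:25788734-25788983 (minus strand) for *Axl*.
Gas6: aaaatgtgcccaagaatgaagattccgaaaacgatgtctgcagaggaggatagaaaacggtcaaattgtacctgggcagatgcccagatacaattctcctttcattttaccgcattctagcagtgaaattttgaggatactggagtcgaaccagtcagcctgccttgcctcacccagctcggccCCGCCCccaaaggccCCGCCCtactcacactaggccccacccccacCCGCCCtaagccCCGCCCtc
Mertk: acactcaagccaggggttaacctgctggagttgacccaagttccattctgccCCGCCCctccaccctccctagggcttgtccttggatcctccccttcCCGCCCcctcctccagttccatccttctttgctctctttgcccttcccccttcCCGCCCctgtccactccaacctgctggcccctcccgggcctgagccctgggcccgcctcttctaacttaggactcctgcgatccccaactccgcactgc
Axl: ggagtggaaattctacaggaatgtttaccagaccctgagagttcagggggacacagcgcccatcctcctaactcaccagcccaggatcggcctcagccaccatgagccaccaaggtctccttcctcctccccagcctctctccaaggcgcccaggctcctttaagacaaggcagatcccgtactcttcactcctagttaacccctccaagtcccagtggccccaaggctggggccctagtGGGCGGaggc
The capitals in all 3 windows are GC boxes (GGGCGG or its complement), the letters bound by the SP1 family. The *Gas6* window held 4, the *Mertk* window 3 and the *Axl* window 1.

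All 10 members were found among the RefSeq promoters, in 11 windows because *Elmo1* has 2. A GC box stood in 9 of the 11 windows, against 32.7% of the 32851 promoter windows of the genome. Letters of an interferon-stimulated response element (GAAA, any 2 letters, GAAA) were in none of the 11 and in 2.98% of all windows. A STAT-type site (TTCNNNGAA) was in the *Pros1* window and in the second *Elmo1* window, against 7.02% of all windows. A nuclear receptor half-site (AGGTCA) occurred only in the *Timd4* window among these 11, and a MAF half-site (TGCTGA) in those of *Timd4* and *Gulp1*, against 14.0% and 16.1% of all windows. TATAAA was found in 1 *Elmo1* window and in 12.4% of all windows. The motifs were searched on both strands with overlaps allowed, and a match is a run of letters and not a measured site. The GC content was 54.8% for *Gas6*, 63.6% for *Mertk* and 60.0% for *Axl*, where the median of all windows was 52.4%. Member windows with a GC box ran from 54.8% (*Gas6*) to 73.2% (*Tyro3*). Those without, of *Timd4* and the second of *Elmo1*, held 50.0% and 43.6%. The share of windows with a GC box was not compared at equal GC content, so nothing is read from it.

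*Pros1*, which encodes protein S, the other TAM ligand, lies on chromosome 16 (GRCm38, 62854307 to 62929346, plus strand) and differed much less. It lay at 11.1, 12.4 and 14.2 FPKM in WT replicates 1, 2 and 3 and at 18.4, 18.2 and 18.6 FPKM in KO replicates 1, 2 and 3. The groups did not overlap, and the KO libraries were nearly equal. The log2 difference was 0.54 (SE 0.10), and it was 0.31 after median-of-ratios scaling.

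*Mfge8*, the bridge to integrins on chromosome 7 (79133768 to 79149060, minus strand), was abundant in both groups. It was listed at 102, 90.0 and 89.0 FPKM in WT replicates 1, 2 and 3 and at 129, 131 and 123 FPKM in KO replicates 1, 2 and 3. Every library labelled KO lay above every library labelled WT, with a log2 difference of 0.45 (SE 0.09) that was 0.22 after median-of-ratios scaling.

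The TAM ligands stood in another proportion in each set of libraries. *Gas6* amounted to 61.9%, 57.7% and 51.5% of the summed FPKM of *Gas6* and *Pros1* in WT replicates 1, 2 and 3. In the KO libraries the share was 92.7% to 92.9%. Expressed as a ratio of FPKM, *Gas6* stood to *Pros1* at 1.06 to 1.63 in WT and at 12.8 to 13.0 in KO, and such a ratio within a library does not move with scaling.

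**Figure D2:**
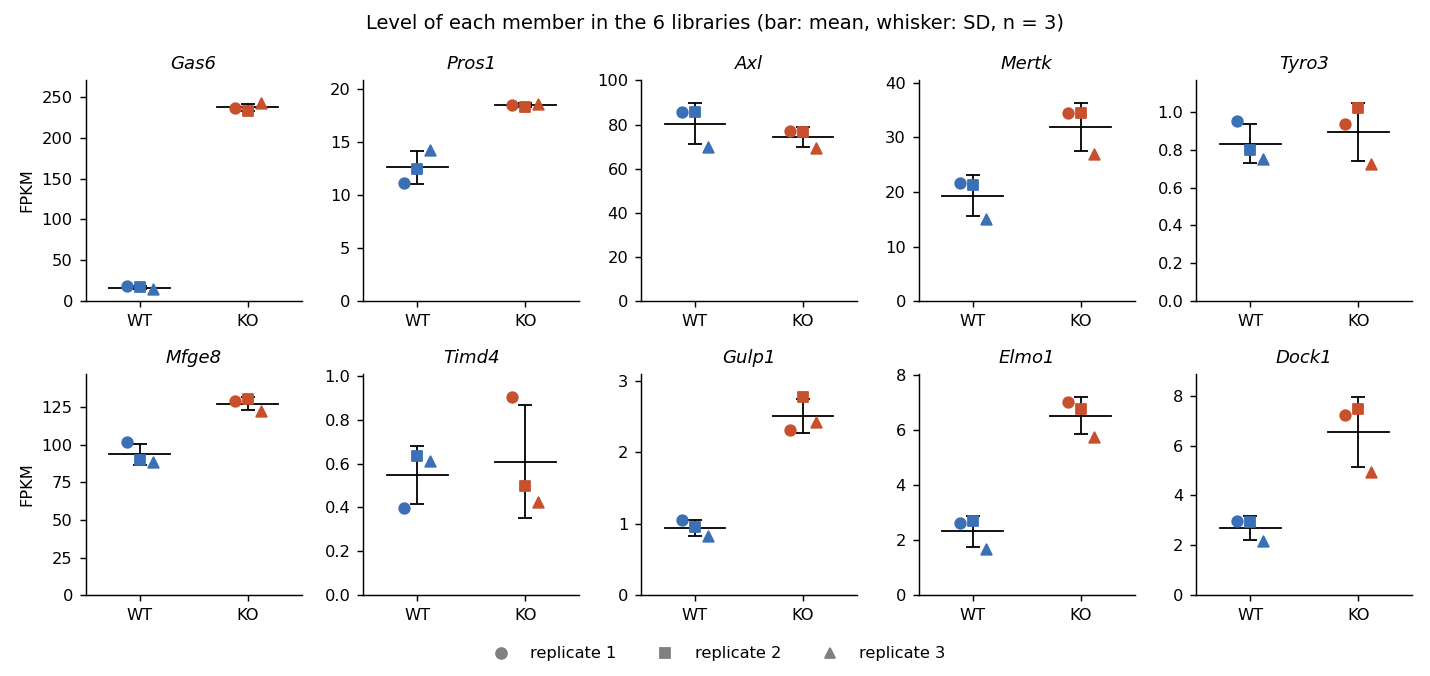
FPKM of each of the 10 members in the 6 libraries, on linear axes that start at 0, with the mean as a bar and the SD as a whisker (n = 3). The groups do not overlap for *Gas6*, *Pros1*, *Mertk*, *Mfge8*, *Gulp1*, *Elmo1* and *Dock1* and overlap for *Axl*, *Tyro3* and *Timd4*. Replicate 3 (triangle) is the lowest of its group for *Axl*, *Mertk*, *Tyro3*, *Mfge8*, *Elmo1* and *Dock1* in both groups.

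*Axl*, the TAM receptor with the highest transcript level here, lies on chromosome 7 (25757273 to 25788705, minus strand) and hardly differed. It was listed at 85.6, 85.7 and 69.8 FPKM in WT replicates 1, 2 and 3 and at 77.0, 76.8 and 69.2 FPKM in KO replicates 1, 2 and 3. The groups overlapped, and replicate 3 was the lowest in each. The log2 difference was -0.11 (SE 0.11), and against the shift of all genes it lay lower, at -0.33 after median-of-ratios scaling.

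*Mertk* is the TAM receptor best known for uptake of dying cells by macrophages and lies on chromosome 2 (128698956 to 128802894, plus strand). Its values were 21.6, 21.3 and 15.0 FPKM in WT replicates 1, 2 and 3 and 34.4, 34.4 and 26.9 FPKM in KO replicates 1, 2 and 3. All KO libraries lay above all WT libraries, and even KO replicate 3 exceeded the highest WT library. The log2 difference was 0.72 (SE 0.17), and 0.50 after median-of-ratios scaling.

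*Tyro3*, the third TAM receptor, lies on the same chromosome (119797733 to 119818104, plus strand) and was near the bottom of the tested genes. It lay at 0.95, 0.795 and 0.751 FPKM in WT replicates 1, 2 and 3 and at 0.934, 1.02 and 0.723 FPKM in KO replicates 1, 2 and 3. The groups overlapped throughout, with a log2 difference of 0.06 (SE 0.14) whose sign turned to -0.08 after median-of-ratios scaling.

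The summed level of the 3 TAM receptors was 101 ± 13.0 FPKM in WT and 107 ± 8.89 FPKM in KO (SD, n = 3), with overlapping groups. Within that sum the proportions differed. *Axl* made up 79.2%, 79.5% and 81.6% of it in WT replicates 1, 2 and 3 and 68.6%, 68.5% and 71.5% in KO replicates 1, 2 and 3. *Mertk* made up 19.1 ± 1.36% in WT and 29.7 ± 1.64% in KO (SD, n = 3), and *Tyro3* at most 0.907% in any library. *Gas6* stood to this sum at a ratio of 0.158 to 0.177 in WT and of 2.08 to 2.50 in KO.

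**Figure D3:**
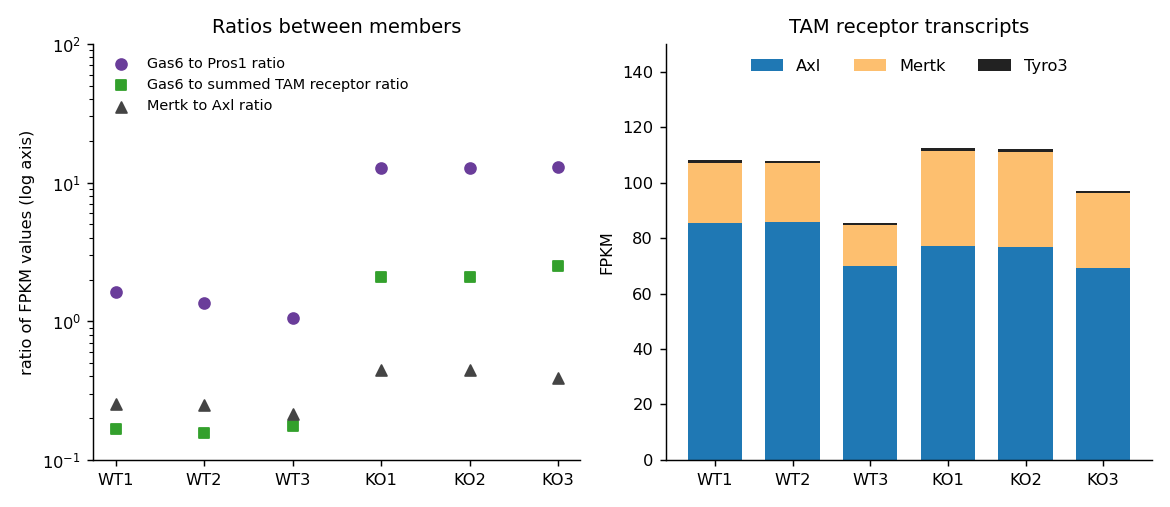
Left, ratios of FPKM between members in each library on a log axis. The *Gas6* to *Pros1* ratio is 1.06 to 1.63 in WT and 12.8 to 13.0 in KO. Right, stacked FPKM of *Axl*, *Mertk* and *Tyro3* per library, where the sums of the groups overlap and the *Mertk* portion is larger in KO.

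*Timd4* encodes a phosphatidylserine receptor of resident macrophages on chromosome 11 (46810800 to 46844332, plus strand) and had the lowest level of the members. It was listed at 0.395, 0.636 and 0.612 FPKM in WT replicates 1, 2 and 3 and at 0.902, 0.495 and 0.425 FPKM in KO replicates 1, 2 and 3. The highest value of the 6 libraries was that of KO replicate 1 and the lowest that of WT replicate 1. The groups overlapped, since WT replicates 2 and 3 lay above KO replicates 2 and 3. If the smallest steps in the FPKM values stand for 1 fragment each, this corresponds to about 16 to 34 fragments per library, given its single transcript of 2173 bases. The log2 difference of 0.06 (SE 0.21) turned to -0.06 after median-of-ratios scaling. No difference between the groups was detected at this low level.

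The 3 engulfment adaptors had the largest differences after *Gas6*. *Elmo1*, which recruits DOCK proteins to the membrane and spans 20090596 to 20608353 on the plus strand of chromosome 13, lay at 2.62, 2.68 and 1.67 FPKM in WT replicates 1, 2 and 3 and at 7.04, 6.77 and 5.76 FPKM in KO replicates 1, 2 and 3. The groups were clearly apart, with replicate 3 the lowest of each. The ratio of means was 2.81 and the log2 difference 1.33 (SE 0.17).

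*Dock1* encodes the exchange factor that loads RAC1 and spans 134670654 to 135173639 on the plus strand of chromosome 7. It was listed at 2.99, 2.94 and 2.16 FPKM in WT replicates 1, 2 and 3 and at 7.23, 7.47 and 4.94 FPKM in KO replicates 1, 2 and 3. Here too replicate 3 was the lowest of its group, and *Dock1* has the longest transcript of the members, at 6807 bases. Its deviation in replicate 3 was -0.38 in WT and -0.53 in KO on the log2 scale, and the log2 difference between the groups was 1.13 (SE 0.19).

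*Gulp1*, the adaptor that binds the tails of uptake receptors, lies on chromosome 1 (44551511 to 44796838, plus strand) and was low in both groups. Its FPKM was 1.05, 0.954 and 0.827 in WT replicates 1, 2 and 3 and 2.32, 2.77 and 2.42 in KO replicates 1, 2 and 3. The groups did not overlap, and the log2 difference was 1.06 (SE 0.12), which the pseudocount of 0.5 understates at such a level. With a pseudocount of 0.1 it was 1.32.

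The members kept much of their order. From the highest mean FPKM down, the order in WT was *Mfge8*, *Axl*, *Mertk*, *Gas6*, *Pros1*, *Dock1*, *Elmo1*, *Gulp1*, *Tyro3* and *Timd4*. In KO *Gas6* stood first and the other 9 followed in the same order as in WT. Neighbours whose libraries overlapped were *Mertk* and *Gas6*, *Dock1* and *Elmo1*, and *Gulp1* and *Tyro3* in WT, and *Dock1* and *Elmo1*, and *Tyro3* and *Timd4* in KO. *Gas6* moved from below *Mfge8* and *Axl* in WT to above both in KO.

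Counted together, 7 of the 10 members passed an adjusted p of 0.05 (limma, Benjamini-Hochberg over all tested genes), all 7 with higher values in KO, and the same number and none lower had an unadjusted p under 0.05. Among all tested genes 37.6% passed, 27.1% higher and 10.5% lower in KO. The same 7 had groups that did not overlap, as did 51.9% of all tested genes. The members' median log2 difference was 0.63, beside 0.19 for all tested genes. Since these genes were chosen with this comparison known, nothing is read from their count. With median-of-ratios scaling 4 members were called higher and 1 lower, and of all calls 47.7% were then higher in KO instead of 72.0%.

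**Figure D4:**
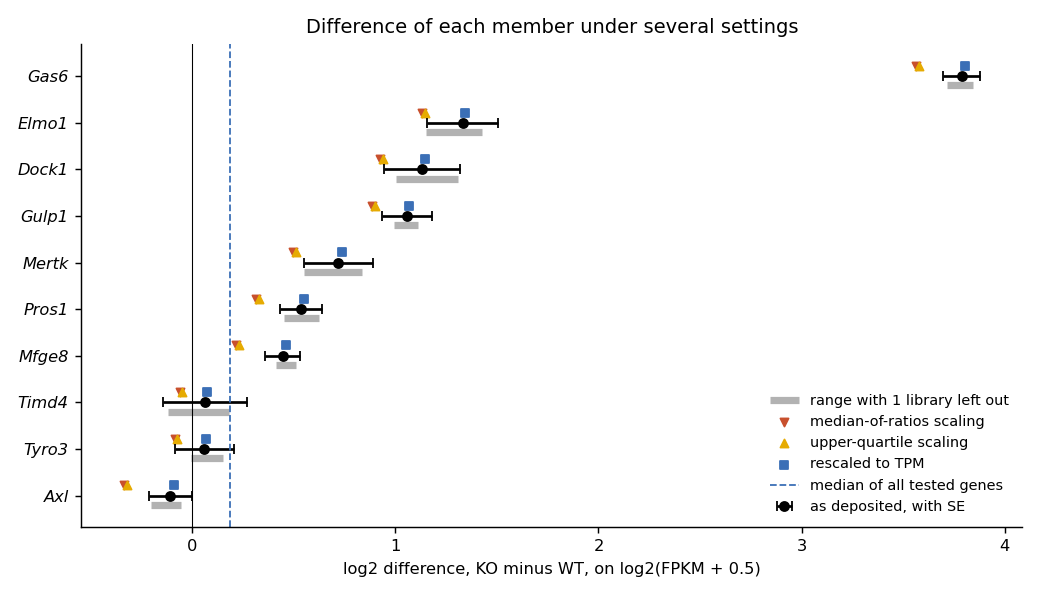
Log2 difference (KO minus WT) of each member on the log2(FPKM + 0.5) scale as deposited (black point, SE as whisker), after 3 scalings (coloured symbols) and as the range with 1 library left out (grey bar). *Gas6* stays between 3.56 and 3.803 over the 3 scalings, *Tyro3* and *Timd4* change sign between scalings, and *Axl* moves from -0.11 to -0.33. The dashed line is the median of all tested genes, 0.19.

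Genes whose pattern over the 6 libraries was closest to that of *Gas6* were found by the distance between centred log2(FPKM + 0.5) values. The nearest 5 were *Ighm* (distance 0.33), *Abca9* (0.40), *Slc46a3* (0.47), *Slc9a9* (0.66) and *Sesn1* (0.69). They encode the heavy chain of immunoglobulin M, an ABC transporter, a lysosomal solute carrier, an endosomal sodium-proton exchanger and a stress-induced sestrin. All 5 had low values in the WT libraries and were lower than *Gas6* in every library. *Sesn1*, the highest of them, lay at 3.07 to 4.07 FPKM in WT and at 39.0 to 43.8 FPKM in KO. A distance over 6 libraries in 2 groups mostly reflects the size of the group difference. *Ighm* (0.057 to 0.391 FPKM in WT) and *Abca9* (0.290 to 0.604 FPKM in WT) reached the required mean of 1 FPKM only through their KO values. At such WT levels the pseudocount of 0.5 understates the difference, so their closeness to *Gas6* depends on it.

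The wider process was then read from 147 other genes in 9 lists, of which 137 passed the filter on low values. Of these, 38 were higher and 29 lower in KO at an adjusted p under 0.05 (limma), together 48.9% beside 37.6% of all tested genes. The lists were chosen with earlier results of these data known. Their counts and p-values, here and below, are therefore descriptions and no independent test of the process. In 4 of the 137, *Stab2*, *Olr1*, *Elmo3* and *Siglecg*, the mean of 1 group was under 0.5 FPKM, so that they passed the filter through the other group, and 3 of them were called. The median log2 difference of the 137 genes was 0.08, below that of all tested genes. The lists did not move in one direction, and the largest differences were decreases among receptors and feedback genes. By list, the share called ran from 33.3% (phagosome maturation and digestion) to 70% (uptake receptors, and bridging molecules and opsonins).

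Among bridging molecules and opsonins, 10 of 14 were tested, and 4 were higher, 3 lower and 3 did not pass. *Anxa1*, a phosphatidylserine-binding annexin, rose from 117 ± 16.4 to 313 ± 16.6 FPKM (SD, n = 3), a log2 difference of 1.43 (adjusted p = 0.00019, limma). The opsonins *Ptx3* and *C1qa* rose by 0.96 (adjusted p = 0.0035) and 0.76 (adjusted p = 0.0037) on the log2 scale. *Calr*, a chaperone that also serves as an eat-me signal on dying cells, fell from 669 ± 22.6 to 273 ± 9.77 FPKM (SD, n = 3), with a log2 difference of -1.29 (adjusted p = 4.85e-05). *Lgals3* and *Thbs1* were also lower, by log2 differences of -0.63 (adjusted p = 0.019) and -0.56 (adjusted p = 0.026). Leaving out 1 library took the adjusted p of *Lgals3* to as much as 0.076 (without KO replicate 1, and above 0.05 also without KO replicate 2 or WT replicate 1). For *Thbs1* it reached 0.0876 without WT replicate 1, and among the 6 libraries only the removal of WT replicate 3 kept it called.

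Uptake receptors outside the TAM family split in both directions, with 6 higher, 8 lower and 6 not passing among the 20 tested of 24. *Stab1*, a scavenger receptor that also binds phosphatidylserine, was listed at 76.6, 78.6 and 42.7 FPKM in WT replicates 1, 2 and 3 and at 223, 230 and 169 FPKM in KO replicates 1, 2 and 3. Replicate 3 was the lowest of each group and the groups were apart, with a log2 difference of 1.68 (adjusted p = 0.0026). Its relative *Stab2* lay at 0.112 ± 0.047 FPKM in WT and 0.957 ± 0.0598 FPKM in KO (SD, n = 3), and it entered the test only through its KO values. *Scarb1*, a receptor for lipoproteins and dying cells, rose by 1.13 (adjusted p = 0.00038). In the other direction, *Olr1*, a receptor for oxidised lipoprotein, fell from 16.0 ± 1.43 to 0.215 ± 0.047 FPKM (SD, n = 3). *Cd300lf*, a lipid-binding inhibitory receptor, fell from 39.97 ± 2.82 to 1.85 ± 0.175 FPKM (SD, n = 3), and *Cd14*, a co-receptor for endotoxin and dying cells, from 1010 ± 150.1 to 99.4 ± 8.39 FPKM (SD, n = 3). These 3 decreases had log2 differences of -4.53, -4.11 and -3.33. *Olr1* entered the test only through its WT values, so no p-value is given for it. The adjusted p-values of *Cd300lf* and *Cd14* were 1.86e-06 and 6.82e-06 (limma).

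Downstream of the receptors, 9 of 25 engulfment signalling genes were higher, none was lower and 16 did not pass. At an unadjusted p under 0.05 (limma) 1, *Ptk2*, was lower, and *Crkl* and *Ptk2* were called lower after median-of-ratios scaling. The called genes were 36% of this list, near the 37.6% of all tested genes, of which only 10.5% were called lower. *Dock2*, the DOCK protein of blood cells, was listed at 6.52, 6.74 and 4.195 FPKM in WT replicates 1, 2 and 3 and at 25.2, 24.7 and 19.6 FPKM in KO replicates 1, 2 and 3. The groups did not overlap and the log2 difference was 1.92 (adjusted p = 0.00044). *Rac2*, the RAC GTPase of blood cells, rose from 29.2 ± 1.70 to 63.1 ± 3.23 FPKM (SD, n = 3, adjusted p = 0.00014, limma), and *Arhgap25*, which switches RAC off, rose by 1.09 (adjusted p = 0.00087). Neutrophils express *Dock2* and *Rac2* as well, and neutrophil markers were higher in the same libraries, as given above. *Rac1* had a log2 difference of 0.30 that did not pass (adjusted p = 0.063).

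Of 25 genes of phagosome maturation and digestion, 24 were tested, of which 6 were higher, 2 lower and 16 did not pass. *Rubcn*, needed for phagocytosis with LC3 lipidation, rose by 0.87 on the log2 scale (adjusted p = 0.010). *Lipa*, the lysosomal acid lipase, rose from 148 ± 12.9 to 237 ± 11.3 FPKM (SD, n = 3, adjusted p = 0.0018, limma), and *Pik3c3*, a lipid kinase of phagosomes, rose by 0.64 (adjusted p = 0.0016). *Cybb*, the catalytic subunit of the phagocyte oxidase, was lower, at 200.1 ± 36.2 FPKM in WT and 97.6 ± 11.04 FPKM in KO (SD, n = 3), with a log2 difference of -1.02 (adjusted p = 0.0029). *Atg5*, of the LC3 conjugation machinery, was lower by -0.40 (adjusted p = 0.016), which did not pass without WT replicate 1 (0.0546), KO replicate 1 (0.0715) or KO replicate 2 (0.0667).

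Transcription factors and metabolic genes of efferocytes gave 4 higher and 5 lower genes among the 17 tested, and 8 that did not pass. *Pparg*, a lipid-sensing nuclear receptor, rose from 2.40 ± 0.324 to 13.4 ± 0.347 FPKM (SD, n = 3), a log2 difference of 2.27 (adjusted p = 1.69e-05). *Maf*, a macrophage transcription factor, rose by 1.89 (adjusted p = 1.13e-05) and *Rxrb*, a partner of nuclear receptors, by 0.91 (adjusted p = 0.0065). *Sgk1* and the glucose transporter *Slc2a1*, both linked to glycolysis during uptake, were lower with log2 differences of -2.52 and -1.41 (adjusted p = 4.88e-06 and 2.66e-05). *Abca1*, which exports cholesterol, was lower by a log2 difference of -1.18 (adjusted p = 0.0063).

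The genes that mature, cleave or answer to the TAM pathway were tested in full. Of the 14, 1 was higher, 5 were lower and 8 did not pass. *Ggcx*, the carboxylase that GAS6 and protein S need for binding lipid, had a log2 difference of -0.25 that did not pass (adjusted p = 0.21). *Adam10* and *Adam17*, the proteases that shed AXL and MERTK, did not pass either (adjusted p = 0.14 and 0.23). *Rhbdf2*, which brings ADAM17 to the cell surface, and *Timp3*, an inhibitor of such proteases, were lower, with log2 differences of -0.90 and -0.54 (adjusted p = 0.0023 and 0.011). TAM signalling is known to induce SOCS1 and SOCS3. Here *Socs1* and *Socs3*, feedback inhibitors of cytokine signalling, had log2 differences of -2.55 and -1.78 (adjusted p = 1.38e-05 and 2.56e-05). *Twist1*, a transcriptional repressor known to respond to AXL, was the gene that rose, by 0.67 (adjusted p = 0.0065).

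Signals that restrain uptake were also mixed, with 3 of 9 genes higher, 2 lower and 4 not passing. *Pilra* and *Siglecg*, inhibitory receptors, rose by 1.29 (adjusted p = 0.0014) and 1.16 on the log2 scale. *Siglecg* entered the test only through its KO values, so no p-value is given for it. *Qpct*, a glutaminyl cyclase, rose by 0.65 (adjusted p = 0.021). Its relative *Qpctl*, which modifies CD47, had a log2 difference of -0.09 that did not pass (adjusted p = 0.55). *Cd274*, which encodes PD-L1, fell from 165 ± 18.5 to 9.82 ± 1.26 FPKM (SD, n = 3, adjusted p = 3.55e-06, limma), and *Cd47*, the main do-not-eat-me signal, had a log2 difference of -0.81 (adjusted p = 0.023). *Cd47* did not pass without WT replicate 1 (0.0633) or WT replicate 2 (0.0535). *Qpct* did not pass without WT replicate 1 (0.0696), WT replicate 2 (0.0654), KO replicate 1 (0.0614) or KO replicate 3 (0.0668), nor after median-of-ratios scaling (0.11).

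Receptors for find-me signals, the molecules that dying cells release, were tested in 8 of 9 cases, with 1 higher, 4 lower and 3 not passing. *P2ry6*, a receptor for uridine diphosphate, rose from 40.1 ± 4.22 to 81.6 ± 6.52 FPKM (SD, n = 3, adjusted p = 0.00056, limma). The formyl peptide receptors *Fpr2* and *Fpr1* fell by log2 differences of -2.97 and -1.85 (adjusted p = 3.08e-05 and 0.00012). *P2ry2*, a nucleotide receptor, had a log2 difference of -0.75 (adjusted p = 0.047) that passed without WT replicate 1 but did not with any other library left out, with adjusted p-values up to 0.13. Last, among the 10 genes that expose or internalise phosphatidylserine, 4 were higher, none was lower and 6 did not pass. None was lower at an unadjusted p under 0.05 either (limma), while *Panx1* was called lower after median-of-ratios scaling. The called genes were 40% of this list, near the 37.6% of all tested genes, of which only 10.5% were called lower. The flippase gene *Atp8a1* rose by 1.19 (adjusted p = 0.00098). *Capn1*, a protease, rose by 0.37 (adjusted p = 0.019), which did not pass without KO replicate 1, 2 or 3 (up to 0.0724) or after median-of-ratios scaling (0.24).

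**Figure D5:**
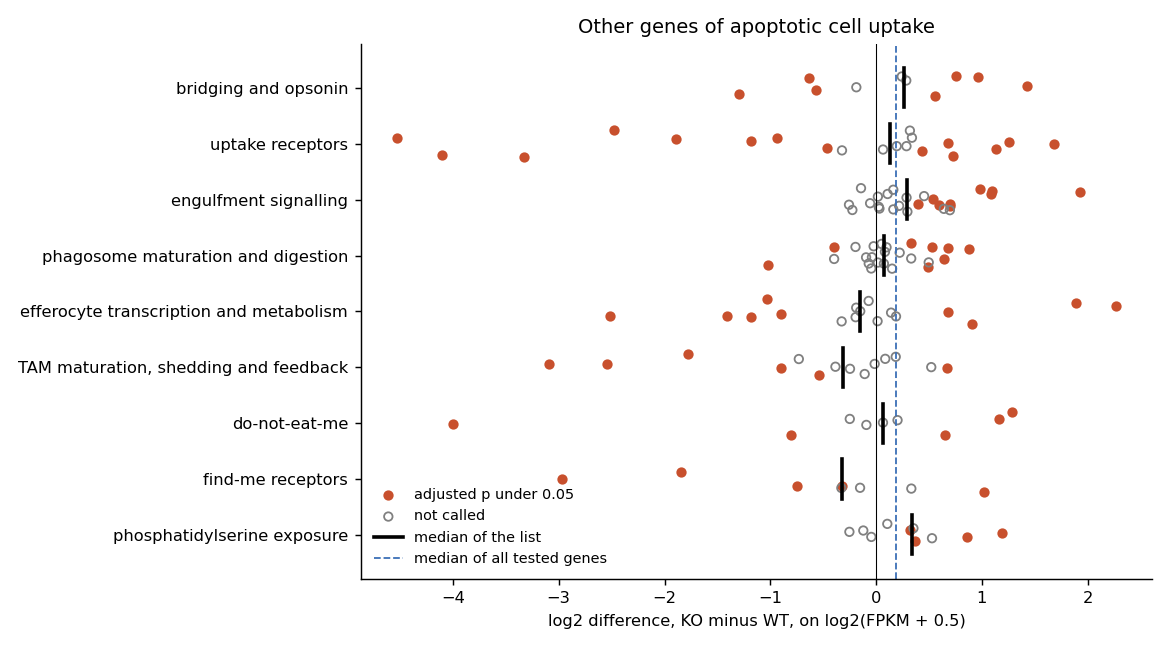
Log2 difference (KO minus WT) on the log2(FPKM + 0.5) scale of the 137 tested genes in 9 lists of apoptotic cell uptake, with genes at an adjusted p under 0.05 filled and the median of each list as a black bar. The uptake receptors reach from -4.53 to 1.68, the lowest being *Olr1*, which entered the test only through its WT values. No gene of engulfment signalling or phosphatidylserine exposure passes in the lower direction as deposited. Of all tested genes only 10.5% pass in that direction. The dashed line is the median of all tested genes, 0.19.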

How the data were processed

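RNA-seq values of 6 BMDM libraries were analysed, 3 labelled as co-cultured with *Cd177* WT and 3 with *Cd177* KO neutrophils. The table that the authors deposited holds FPKM, which corrects for transcript length and library total. The submitters' processing notes name fastp 0.17.1, HISAT2 2.1.0, DESeq2 1.18.1 and R 3.4.3. The annotation, the genome build and the FPKM tool are not given in the sources used here, and the labels and the methods name different extraction reagents, library kits and sequencers. No column of sample values was left unmatched. Symbols, positions and transcript lengths came from GENCODE M21 (GRCm38), which held 55154 of the 55335 identifiers, and the promoter windows and motif counts from RefSeq (GRCm38.p6).

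Differences were fitted with limma 3.58.1 in R 4.3.3 (lmFit, eBayes with trend, two-sided, no covariate) on log2(FPKM + 0.5) in 13367 genes (mean over the 6 libraries 0.5 FPKM or more), with Benjamini-Hochberg adjustment over these. The pseudocount understates the change of low genes. The fit was tested on simulated data with known changes. Counts were not used here, so the depth is unknown. Of low values, 39.7% to 43.4% were whole multiples of the smallest common step to within 0.1 (20% by chance), so whole fragments were not recovered, and the implied 17600000 to 20300000 fragments per library are an estimate. Strand use in counting is not given, so reads of overlapping antisense genes cannot be told apart.

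The members and the gene lists were chosen with earlier results of these data known. Named genes are all members, the 3 highest and 3 lowest log2 differences per list among called genes without overlap of the groups, and the 5 genes nearest to *Gas6* with a mean of at least 1 FPKM. *Rac1*, *Crkl*, *Panx1*, *Ptk2*, *Ggcx*, *Adam10*, *Adam17*, *Rhbdf2*, *Timp3*, *Qpctl* and *Elmo3* and the single marker genes were named after their values were seen. Some genes that this rule names are not reported here. Alternatives were other pseudocounts, filters, scalings and variance estimates, a block for the replicate number, removal of each library, and the threshold of the study. Leaving out replicate 3 of both groups was added after the data were seen. Other steps ran in Python 3.11.15 (pandas 2.3.3, numpy 2.4.6, matplotlib 3.10.9).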

Additional observations from a re-analysis of the deposited data

How the results depend on the processing

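The direction of *Gas6*, *Pros1*, *Axl*, *Mertk*, *Mfge8*, *Gulp1*, *Elmo1* and *Dock1* was the same under all 16 alternatives. *Tyro3* (log2 difference 0.06) reversed with median-of-ratios scaling (-0.0843), upper-quartile scaling (-0.0753) and without KO replicate 2 (range with 1 library left out -0.0052 to 0.15), and *Timd4* (0.06) with the same scalings (-0.0582 and -0.0513) and without WT replicate 1 or KO replicate 1 (range -0.12 to 0.18). The count of 7 members called higher fell to 4 with median-of-ratios scaling and with the threshold of the study (more than 2-fold, unadjusted p under 0.05). It was 6 without KO replicate 1 or 2. The count of members called lower went from 0 to 1 under median-of-ratios and upper-quartile scaling and without replicate 3 of both groups. Since the members were chosen with this comparison known, nothing is read from these counts. With the study's threshold 13 pathway genes were higher and 18 lower, and over all genes 893 were higher and 592 lower instead of 3619 and 1408. Median-of-ratios scaling gave 2057 higher and 2259 lower, and upper-quartile scaling 2122 and 2152. Of the 42 pathway genes named by rule, 35 passed and all 42 kept their sign in every alternative that tested them, which was 12 of 16 for *Stab2* and 16 of 16 for the others. With 1 library left out, 29 to 43 pathway genes were higher and 24 to 35 lower. With 1 library left out, a group of 2 was compared with a group of 3.

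With the replicate number as a block, 7 members were higher and 0 lower, 44 pathway genes were higher and 30 lower, and 4253 genes were higher and 1681 lower. The deviations of same-numbered libraries from their group means correlated at 0.12, 0.04 and 0.26 for replicates 1, 2 and 3. Those of differently numbered libraries ran from -0.233 (WT replicate 1, KO replicate 3) to 0.16 (WT replicate 1, KO replicate 2). Replicate 3 of both groups thus shared a deviation, while replicates 1 and 2 were not matched by number, and the main fit has no block. With the block the SE of *Mertk* was 0.07 instead of 0.17 and that of *Dock1* 0.09 instead of 0.19, while that of *Timd4* was 0.24 instead of 0.21. A minimum mean of 1 FPKM left *Timd4* and *Tyro3* untested. If the smallest FPKM steps stand for 1 fragment each, *Timd4* rests on about 16 to 34 fragments per library.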
